A study of Mus musculus with 7 samples.

Results

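The 9 genes described here, Foxo1, Sesn3, Pik3ip1, Ddit4, Txnip, Ccng2, Btg1, Btg2 and Cdkn1b, belong to the FoxO and quiescence programme and were chosen by symbol from the 32286 features counted. All 9 were found. Each was read in thymocyte barcodes of 7 single-cell RNA-seq libraries and, within each library, in cycling and non-cycling barcodes. A thymocyte barcode had at most 1 unique molecular identifier (UMI, a tag that counts 1 captured transcript) of the B cell genes Cd79a, Cd79b and Ms4a1 together. A cycling barcode had at least 2 UMIs of Mki67 and Top2a, which are expressed by dividing cells, and a non-cycling barcode had 0.

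The libraries sampled double negative (DN, CD4-CD8-) thymocytes around the point where the αβ and γδ T cell lineages part, with 1 library for each of 7 sorted populations. All animals were C57BL/6. In 5 libraries the donors were wild type (WT), 6 to 8 weeks old, with thymi of both sexes pooled and depleted of CD4+ and CD8+ cells on beads. These held DN3a cells, the precursors shared by both lineages, the β-selected DN3b γδ- and DN4 γδ- cells of the αβ path, and the DN3b γδ+ and DN4 γδ+ cells of the γδ path. In the sort, CD71, the transferrin receptor, separated DN3b γδ- from DN3a cells, and DN4 γδ- cells were CD71+. The other 2 libraries, DN3 γδ- and DN3 γδint, had the genotype Lat-/-TCRd-H2BEGFP (Lat-KO below) and came from thymocytes that were not depleted. These cells lack the adaptor LAT, which relays T cell receptor signals, and carry a fluorescent reporter at the TCR δ constant gene that the WT donors lacked. The deletion, the reporter, the missing depletion and the sort gates cannot be told apart. WT DN3a cells were set apart by CD71, while the study reports CD71 on part of the Lat-KO DN3 γδint cells. Every library was spiked with 500 sorted splenic B cells.

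FoxO transcription factors are held out of the nucleus when PI3K and AKT are active. When growth factor or antigen receptor signalling through PI3K is low, they enter the nucleus and activate genes that slow growth and division, and in T cells also genes of survival and trafficking. Cells that leave this resting state to divide, as thymocytes do after β-selection, are known to lower many of these transcripts. The 9 genes cover several steps: Foxo1 is one of the factors; Pik3ip1, Ddit4 and Sesn3 restrain PI3K or mTORC1; Txnip restrains glucose uptake and binds thioredoxin; Cdkn1b (p27) inhibits cyclin-dependent kinases, Ccng2 is an atypical cyclin linked to cell cycle arrest, and Btg1 and Btg2 are antiproliferative proteins that promote mRNA deadenylation.

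In all, 71081 of 79076 barcodes that passed the quality filter were thymocyte barcodes, from 5274 to 18515 a library, with a median of 5737.5 to 18506 UMIs each. Lat itself lay at 357 to 648 CPM (UMIs per 1000000 thymocyte UMIs of a library) in the WT libraries and at 4.83 and 0.899 CPM in Lat-KO DN3 γδ- and DN3 γδint. The summed level of 10 T cell markers was 3506 to 11472 CPM. Ribosomal protein genes took 27.7 to 33.7% of UMIs in 6 libraries but 18.2% in Lat-KO DN3 γδint, so CPM of all other genes stand higher there. With 1 library a population no test between populations was possible. Each value below carries a 95% interval from its count, which covers counting error only, and a difference is called by size, at least 2-fold (1 on the log2 scale), in either direction. Cycling barcodes made up 6.16% of WT DN3a, 88.4% of DN3b γδ-, 83.6% of DN4 γδ-, 80.8% of DN3b γδ+ and 18.4% of DN4 γδ+, and 8.87% and 23.3% of Lat-KO DN3 γδ- and γδint. Median depth by library was 12113 to 19996 UMIs in cycling and 4438.5 to 7658 in non-cycling barcodes. States were set on these full counts, so a shallow barcode was more easily read as non-cycling. The share of barcodes with a UMI is given after drawing 4000 UMIs from each barcode that had as many, so that depth is equal. This left out the 343 to 1769 shallower barcodes of each library, and kept 524 of 1002 non-cycling barcodes in DN4 γδ-. Neither this share nor CPM gives the amount of RNA per cell.

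Foxo1 encodes the main FoxO factor of lymphocytes. Its level was 70.9 CPM for DN4 γδ+, 12.9 for DN3b γδ+, 7.41 for DN4 γδ-, 6.61 for DN3b γδ- and 11.4 for WT DN3a, with 15.01 and 11.3 for Lat-KO DN3 γδ- and γδint. WT DN4 γδ+ (interval 68.9 to 72.9) stood apart from the other 6 libraries, all between 6.61 and 15.01 CPM, and the intervals of WT DN3a and Lat-KO DN3 γδint overlapped. At 4000 UMIs a barcode, Foxo1 was seen in 24.7% of DN4 γδ+ barcodes and in 2.74 to 6.12% elsewhere. Without drawing, the range elsewhere was 7.55 to 17.1%, with 36.4% in DN4 γδ+. The level of 84.0 CPM in non-cycling and 51.2 in cycling DN4 γδ+ barcodes showed that both states of that library lay above every state of the others, whose highest value was 15.5 CPM.

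Pik3ip1, a membrane protein that inhibits PI3K, had another order. It lay at 223 and 186 CPM for Lat-KO DN3 γδ- and γδint and 170.0 for WT DN3a, then at 58.6 for DN4 γδ+, 32.1 for DN3b γδ-, 24.0 for DN3b γδ+ and 20.01 for DN4 γδ-. WT DN3a and the Lat-KO libraries thus had the 3 highest levels, and no neighbours in this order had overlapping intervals. DN4 γδ+, highest of all for Foxo1, came after all 3 of them for Pik3ip1, and in cycling barcodes it had only 28.1 CPM against 103.8 to 134 in WT DN3a and the Lat-KO libraries. The share of barcodes with Pik3ip1 at 4000 UMIs ran from 8.46% in DN4 γδ- to 58.6% in Lat-KO DN3 γδ-.

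Ddit4 (REDD1), a stress-induced inhibitor of mTORC1, was highest in DN4 γδ+, at 35.5 CPM, and lowest in DN3b γδ-, at 5.90. The Lat-KO libraries had 27.9 (γδint) and 25.1 CPM (γδ-) with overlapping intervals, followed by WT DN3a with 20.1, DN3b γδ+ with 10.9 and DN4 γδ- with 9.25 CPM. Non-cycling barcodes had more in every library, from 13.5 CPM in DN3b γδ- to 41.3 in DN4 γδ+, against 5.56 to 26.6 CPM in cycling barcodes.

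Sesn3, a sestrin that dampens mTORC1 and is known as a FoxO target, was highest in the γδ+ populations. It stood at 91.7 CPM for DN4 γδ+ and 48.3 for DN3b γδ+, at 13.1 for DN4 γδ- and 10.96 for DN3b γδ-, and at 36.3, 39.3 and 39.0 for WT DN3a, Lat-KO DN3 γδ- and γδint. The 2 αβ-path populations were lowest and the 2 γδ+ populations highest, while WT DN3a and both Lat-KO libraries lay between them with intervals that overlapped between neighbours. In DN3b γδ+ the level was 48.9 CPM in cycling barcodes and 42.8 in non-cycling barcodes. Among non-cycling barcodes it lay below Lat-KO DN3 γδint (51.2 CPM), and its interval overlapped those of both Lat-KO libraries, so the order above did not hold there for DN3b γδ+. At 4000 UMIs it was seen in 17.2% of DN3b γδ+ and 30.8% of DN4 γδ+ barcodes, and in 4.56 and 5.64% of DN3b γδ- and DN4 γδ- barcodes. The study placed Sesn3 in a list of genes induced by the γδ TCR that it chose on these libraries, so this order is not independent evidence of that.

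Txnip, the thioredoxin-interacting arrestin that lowers glucose uptake, had 155 CPM for Lat-KO DN3 γδint, 139 for both WT DN3a and Lat-KO DN3 γδ-, whose intervals overlapped, and 93.2 for DN4 γδ+. The 3 mostly cycling populations had 34.2 (DN3b γδ+), 26.5 (DN4 γδ-) and 22.9 CPM (DN3b γδ-). Btg1, which slows division in many cell types, had 558 CPM for DN4 γδ+, 446 and 439.8 for Lat-KO DN3 γδ- and γδint, again with overlapping intervals, and 350.3 for WT DN3a. It had 104 CPM for DN3b γδ+, 56.7 for DN4 γδ- and 50.1 for DN3b γδ-. It was seen in 81.8% of DN4 γδ+ barcodes and 19.0% of DN3b γδ- barcodes at 4000 UMIs.

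The start regions of Txnip and Btg1 are shown because the heptamer GTAAACA, core letters of the motif that FoxO proteins bind, lies in both. The 250 bases before the start of each of the 9 genes were searched on both strands, with sequences from RefSeq on GRCm38.p6, where all 9 matched by symbol. GTAAACA was in 2 of the 9 and in 3.17% of 32851 start regions of the same length. In Txnip it began 121 bases before the start, and in Btg1 it lay on the opposite strand 204 bases before the start, written TGTTTAC on the gene's strand. Of the other letters searched, CAAAACA was in 1 of the 9 (Ccng2) and in 5.56% of all start regions, CACGTG (the E box) in 0 of the 9 and 6.02%, and TGACGTCA (the cyclic AMP response element) in 1 of the 9 (Btg2) and 1.55%. A match is a description of the letters and not a measured binding site. Both sequences run along the plus strand and the capitals mark the heptamer:
Txnip, chr3:96557707-96557956: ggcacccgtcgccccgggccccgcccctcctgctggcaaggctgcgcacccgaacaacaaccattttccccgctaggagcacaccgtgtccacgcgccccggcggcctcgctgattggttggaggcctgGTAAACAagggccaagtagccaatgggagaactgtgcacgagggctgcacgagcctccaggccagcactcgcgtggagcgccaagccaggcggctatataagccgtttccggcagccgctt
Btg1, chr10:96616751-96617000: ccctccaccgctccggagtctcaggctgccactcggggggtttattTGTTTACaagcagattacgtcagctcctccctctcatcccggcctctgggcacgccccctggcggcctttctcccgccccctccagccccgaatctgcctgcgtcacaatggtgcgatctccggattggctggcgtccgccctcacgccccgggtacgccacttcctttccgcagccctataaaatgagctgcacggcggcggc

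In the GENCODE vM21 annotation of GRCm38, Txnip spans chr3:96557957-96561883 and Btg1 chr10:96617006-96622809, both on the plus strand, and an antisense gene, Gm15441, overlaps the start of Txnip on the minus strand. Foxo1 lies at chr3:52268336-52353221, Sesn3 at chr9:14275067-14333101, Pik3ip1 at chr11:3330401-3342971, Ccng2 at chr5:93267257-93276231 and Cdkn1b at chr6:134920401-134925513, all on the plus strand. Ddit4 at chr10:59949669-59951834 and Btg2 at chr1:134075170-134079120 are on the minus strand. All 9 code for proteins.

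Btg2, the p53-inducible relative of Btg1, ran from 51.3 CPM in DN3b γδ- to 315 CPM in Lat-KO DN3 γδ-. Between these, DN4 γδ- had 73.1 CPM, DN3b γδ+ 70.6, DN4 γδ+ 199, Lat-KO DN3 γδint 228 and WT DN3a 235, the last 2 with overlapping intervals. Cdkn1b had 113 CPM in WT DN3a and 107 in DN4 γδ+, whose intervals overlapped, 102 and 89.6 in Lat-KO DN3 γδint (which also overlapped DN4 γδ+) and γδ-, and 37.8, 42.0 and 44.0 in DN3b γδ-, DN4 γδ- and DN3b γδ+. For Cdkn1b the 3 mostly cycling populations thus lay below the other 4. Ccng2 had 42.4 CPM for DN4 γδ+, 25.3 and 24.9 for Lat-KO DN3 γδint and γδ-, 22.5 for WT DN3a, 13.8 for DN3b γδ+ and 12.7 for both DN3b γδ- and DN4 γδ-. The αβ-path pair overlapped for Ccng2, as did WT DN3a with Lat-KO DN3 γδ- and the latter with DN3 γδint.

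**Figure D1:**
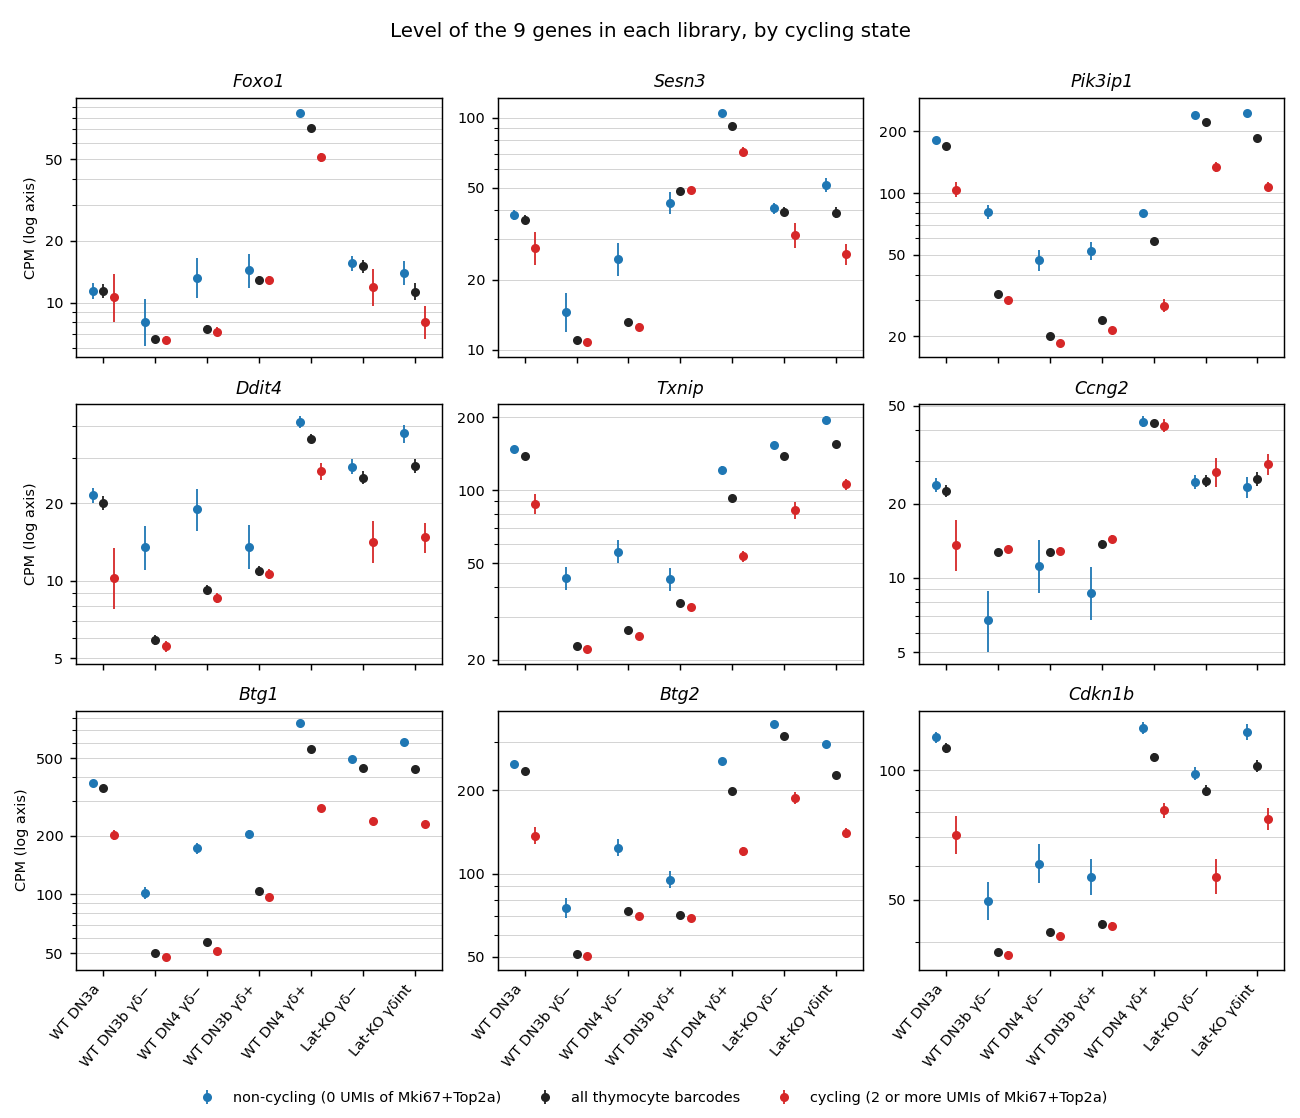
CPM (log axis, one scale per gene) of the 9 genes in the 7 libraries, for non-cycling barcodes (blue), all thymocyte barcodes (black) and cycling barcodes (red), with exact Poisson 95% intervals of 1 library each. Red points lie below blue points for all genes but Ccng2 and, in DN3b γδ+, Sesn3, and DN4 γδ+ is highest for Foxo1 (70.9 CPM) and Sesn3 (91.7 CPM).

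Some UMIs of a barcode are free RNA from other cells. In B-like barcodes, the spiked cells, the T cell gene Cd3e had a UMI in 24.5 to 42.6% of barcodes at 4000 UMIs, against 67.0 to 99.004% of thymocyte barcodes. The median depth was 2343 to 3460.5 UMIs in the B-like barcodes. B cells express the 9 genes themselves (Foxo1 at 54.8 to 86.5 CPM in B-like barcodes), so no cell type here served as one that lacks them. B markers summed to 112 to 278 CPM in thymocyte barcodes and 16814 to 41695 CPM in B-like barcodes. A share of barcodes near the lowest printed, such as 2.74% for Foxo1 or 2.64% for Ddit4 in DN3b γδ-, was therefore not told apart from free RNA.

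The step from WT DN3a to DN3b γδ- is β-selection, when thymocytes with a pre-TCR begin to divide. These populations were parted in the sort by CD71, which the study ties to proliferation, so barcodes of either state passed that gate. Its part in the values of the 9 genes was not tested. All 9 genes were lower in DN3b γδ-, 7 of them at least 2-fold, where 16.3% of 7894 genes compared (at least 10 CPM in 1 of the pair) were at least 2-fold lower. The largest log2 differences were those of Btg1, -2.81 (interval -2.84 to -2.78), Txnip, -2.60 (-2.65 to -2.55), Pik3ip1, -2.41 (-2.45 to -2.37), and Btg2, -2.20 (-2.23 to -2.16). Ddit4 differed by -1.77, Sesn3 by -1.73 and Cdkn1b by -1.57, while Ccng2 (-0.82) and Foxo1 (-0.79) stayed under 2-fold. The median was -1.77 for the 9 genes and -0.09 for all genes tested. Scaling by trimmed means of M values (TMM, which sets the bulk of genes equal) added 0.40 to each log2 value. It left the same count, 7 of 9, with 8.56% of all genes lower and 20.6% higher in place of 10.4%.

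Within non-cycling barcodes 7 of 9 genes were likewise at least 2-fold lower in DN3b γδ-, with 10.4% of all genes. The 8 other cycle genes summed to 764 CPM in these DN3b γδ- barcodes and 167 in those of WT DN3a, so cycling was not removed from this comparison. In non-cycling barcodes the members past 2-fold were Btg1 (-1.88), Ccng2 (-1.82), Txnip (-1.76), Btg2 (-1.72), Sesn3 (-1.39), Cdkn1b (-1.26) and Pik3ip1 (-1.17), while Ddit4 was at -0.67 and Foxo1 at -0.50. Within cycling barcodes 5 of 9 were at least 2-fold lower, with 8.23% of all genes: Btg1 (-2.07), Txnip (-1.99), Pik3ip1 (-1.79), Btg2 (-1.45) and Sesn3 (-1.35). Ccng2 did not differ there beyond its interval, at -0.06 (-0.40 to 0.29). The 993 non-cycling barcodes of DN3b γδ- were 5.36% of the library, 21.6% of them had under 10 UMIs of the T cell markers against 1.36% in WT DN3a, and erythroid globin genes summed to 387 CPM in them against 0.125. Keeping only barcodes with at least 10 T marker UMIs gave Btg1 -1.92, Ccng2 -1.89, Txnip -1.77 and Btg2 -1.72 in the non-cycling comparison, while the mean of single-barcode CPM gave Ccng2 -1.01. Immediate-early genes, which tissue dissociation can induce, moved the same way, at a summed 2214 CPM in WT DN3a and 420.2 in DN3b γδ-, with 10 and 7 of 11 genes over 10 CPM. Within cycling barcodes the list stood at 1470 and 413 CPM. Its part in the values of the 9 genes was not tested.

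The step from WT DN3a to DN3b γδ+ is γδ selection, and it shares its WT DN3a library with the comparison above. Here 5 of 9 genes were at least 2-fold lower, with 15.3% of 7944 genes lower: Pik3ip1 (-2.82), Txnip (-2.02), Btg1 (-1.75), Btg2 (-1.73) and Cdkn1b (-1.36). Ddit4 (-0.88) and Ccng2 (-0.71) were lower by less, and Foxo1 at 0.18 (0.05 to 0.31) and Sesn3 at 0.41 (0.34 to 0.48) were slightly higher. The median was -1.36 over the 9 genes and -0.07 over all genes. TMM scaling added 0.30 and left the count at 5, with 10.2% of genes lower. Within non-cycling barcodes the count was again 5 of 9 with 11.9% of all genes, and Ccng2 (-1.46) took the place of Btg1 (-0.87). Within cycling barcodes it was 3 of 9, with 8.5% of all genes, namely Pik3ip1 (-2.28), Txnip (-1.41) and Btg1 (-1.06), while Sesn3 was higher by 0.83 (0.60 to 1.08). TMM scaling there left 2 lower, with 6.1% of all genes and Btg1 at -0.85, and put 1, Sesn3, past 2-fold higher at 1.04, with 7.38%. Globin genes summed to 679 CPM in the non-cycling DN3b γδ+ barcodes. The 8 other cycle genes summed to 865 CPM there and to 167 in non-cycling WT DN3a barcodes. Over all barcodes, 5 of 5 glucocorticoid-responsive and 5 of 10 immediate-early genes were at least 2-fold lower in DN3b γδ+ than in WT DN3a. The part of these in the values of the 9 genes was not tested.

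Set directly against each other, the selected γδ and αβ precursors differed in 2 of the 9 genes by at least 2-fold, both higher in DN3b γδ+, where 5.14% of 7276 genes were higher. These were Sesn3, at 2.14 (2.09 to 2.20), and Btg1, at 1.06 (1.03 to 1.09). Foxo1 (0.97) and Ddit4 (0.89) came close, Txnip (0.58), Btg2 (0.46), Cdkn1b (0.22) and Ccng2 (0.11) were higher by less, and Pik3ip1 was lower, at -0.42 (-0.47 to -0.37). Sesn3 and Btg1 were also the 2 past 2-fold among non-cycling barcodes (1.56 and 1.01, 2 of the 8 measured, with 6.14% of all genes) and among cycling barcodes (2.18 and 1.01, with 5.16%). Both libraries cycle to a like share, 80.8 and 88.4%, and TMM moved the log2 values by -0.02 and left 2 of 9, with 5.02% of all genes. CD71 was used to sort DN3b γδ- cells, and the study describes no such gate for DN3b γδ+ cells. The part of that gate in these values was not tested. The call of Btg1 was lost under other settings, its lowest values being 0.97 over all, 0.65 in non-cycling and 0.92 in cycling barcodes. Immediate-early genes differed the same way, at a summed 944 CPM in DN3b γδ+ and 420.2 in DN3b γδ-, with 5 of 10 at least 2-fold higher over all and in cycling barcodes and 4 of 10 in non-cycling barcodes, where globin genes summed to 679 and 387 CPM. The part of these in the values of Sesn3 and Btg1 was not tested.

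**Figure D2:**
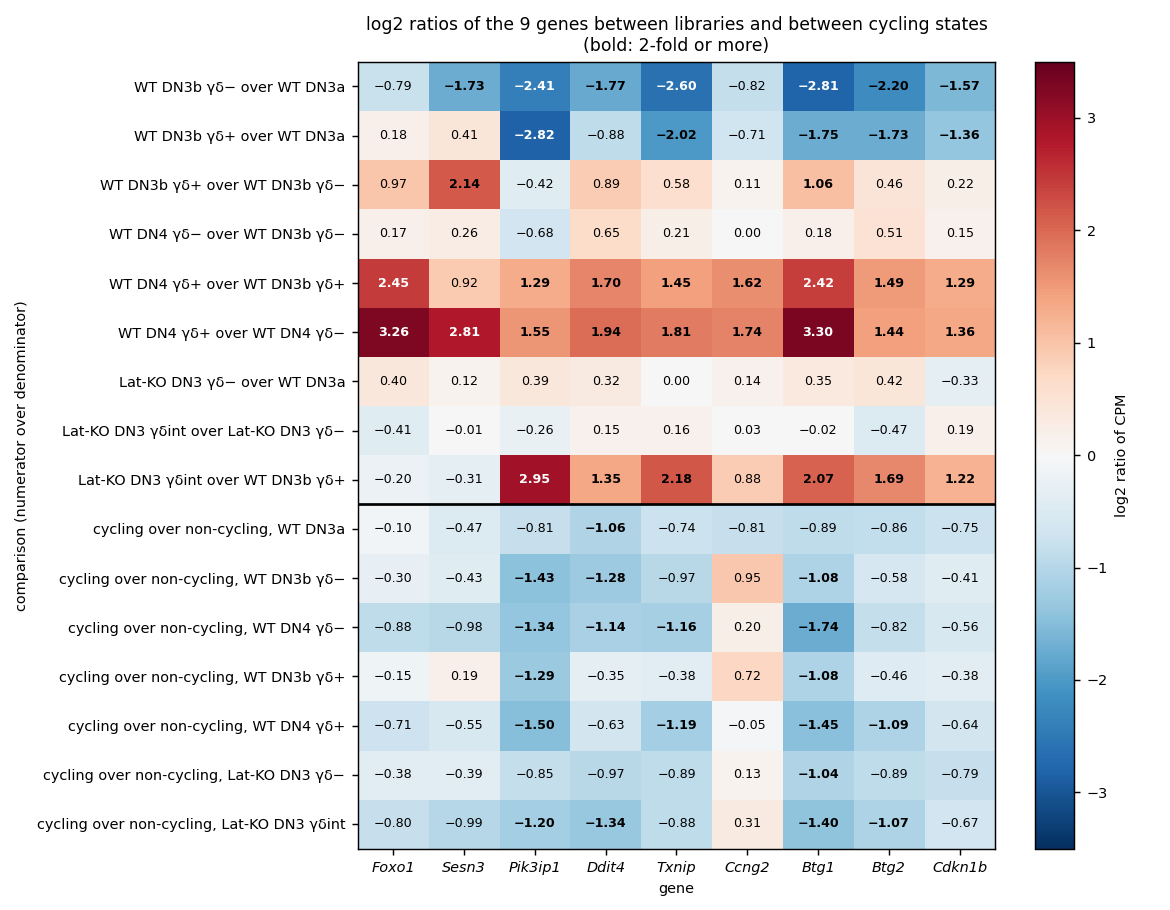
Log2 ratios of CPM for each of the 9 genes (columns), for 9 comparisons between libraries and for cycling over non-cycling barcodes within each of 7 libraries (rows), colour and printed value giving the same number. The negative values for DN3b over DN3a (all 9 genes for γδ-, all but Foxo1 and Sesn3 for γδ+), the positive Sesn3 value of 2.14 for DN3b γδ+ over γδ- and the positive row for DN4 γδ+ over DN3b γδ+ stand out.

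From DN3b γδ- to DN4 γδ-, 0 of the 7 members with enough counts reached 2-fold, in a comparison where 0.77% of genes were lower and 0.542% higher. Pik3ip1 differed most, at -0.68 (-0.73 to -0.63), followed by Ddit4 at 0.65 and Btg2 at 0.51, while the interval of Ccng2 was -0.07 to 0.06. Ddit4 and Foxo1 were under 10 CPM in both libraries. Among non-cycling barcodes 0 of 9 reached 2-fold either, with 1.96% of genes lower and 2.29% higher, but 8 of 9 were higher, all but Pik3ip1, with a median of 0.72 against -0.13 over all genes. In the same non-cycling barcodes of DN3b γδ- and DN4 γδ-, globin genes summed to 387 and 3401 CPM, B markers to 323 and 568 CPM and immediate-early genes to 611 and 824 CPM (3 of 10 at least 2-fold higher), and 21.6 and 43.4% had under 10 T marker UMIs. The part of these in that median was not tested.

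From DN3b γδ+ to DN4 γδ+, all 9 genes were higher and 8 were at least 2-fold higher, with 11.8% of 7766 genes higher. Foxo1 differed by 2.45 (2.38 to 2.52), Btg1 by 2.42 (2.39 to 2.44), Ddit4 by 1.70, Ccng2 by 1.62, Btg2 by 1.49, Txnip by 1.45 and Pik3ip1 and Cdkn1b by 1.29 each, and Sesn3 by 0.92 (0.88 to 0.97). The median was 1.49 for the 9 genes and 0.08 for all. TMM scaling took 0.30 from each value and left 6 of 9 past 2-fold, with 7.06% of all genes, Pik3ip1 and Cdkn1b dropping under it. Within non-cycling barcodes 8 of 9 were at least 2-fold higher, with 13.0% of all genes, and Sesn3 (1.29) was among them while Pik3ip1 (0.61) was not. In these barcodes of DN4 γδ+ and DN3b γδ+ the 8 other cycle genes summed to 200 and 865 CPM and globin genes to 75.0 and 679 CPM. Under 10 T marker UMIs were found in 15.25 and 25.0% of them. The part of these in the values was not tested. Within cycling barcodes 4 of 9 were higher, with 4.52% of all genes: Foxo1 (1.99), Ccng2 (1.53), Btg1 (1.51) and Ddit4 (1.32).

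The DN4 libraries of the 2 paths were then compared. DN4 γδ- cells were sorted as CD71+, and the part of that gate in the values was not tested. All 9 genes were at least 2-fold higher in DN4 γδ+ than in DN4 γδ-, where 19.7% of 7802 genes were, from 1.36 for Cdkn1b to 3.26 for Foxo1 and 3.30 for Btg1, and 9 of 9 also with TMM scaling, which took 0.34 from each value and left 13.5% of all genes. Within non-cycling barcodes 8 of 9 were (17.4% of all genes), with Foxo1 at 2.67, Btg1 at 2.13 and Sesn3 at 2.08, and Pik3ip1 at 0.76 the exception. TMM scaling left 6 of 9 there (16.1% of all genes), with Btg2 and Cdkn1b at 0.996 each. In that comparison 43.4% of non-cycling DN4 γδ- barcodes had under 10 T marker UMIs, and globin genes summed to 3401 CPM in them. The 8 other cycle genes summed to 944 CPM in them and to 200 in non-cycling DN4 γδ+ barcodes. Within cycling barcodes 6 of 9 were (13.2% of all genes), or 5 with TMM scaling (9.22%), and globin genes there summed to 28.7 and 0.302 CPM in DN4 γδ- and DN4 γδ+. The DN4 γδ+ library also had 32.5 CPM of the natural killer markers, against 0.062 to 3.95 CPM in the others. The immediate-early genes summed to 1488 CPM for DN4 γδ+, 944 for DN3b γδ+ and 425 for DN4 γδ-, and 7 of 10 measured were at least 2-fold higher in DN4 γδ+ than in DN4 γδ-, as were 4 of 5 glucocorticoid-responsive genes. The part of either list in the values of the 9 genes was not tested.

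The Lat-KO libraries addressed what is lost without LAT, within the limits given above. Lat-KO DN3 γδ- cells, sorted without surface γδ TCR, were set against WT DN3a, and 0 of 9 genes reached 2-fold, with 2.8% of 8070 genes higher and 0.62% lower. The log2 values ran from -0.33 for Cdkn1b to 0.42 for Btg2, beside a median of 0.24 over all genes. TMM scaling took 0.20 from each and put Sesn3 and Ccng2 below 0. Lat-KO DN3 γδint cells, sorted at an intermediate γδ TCR level, differed from Lat-KO DN3 γδ- by -0.47 (Btg2) to 0.19 (Cdkn1b), again 0 of 9, with 4.54% of 8347 genes higher and 3.53% lower, and TMM scaling took 0.16 from each value. Sesn3, 2.14 apart between DN3b γδ+ and γδ-, differed by -0.01 (-0.11 to 0.09) between the Lat-KO libraries over all barcodes. That value mixes states: Sesn3 had 51.2 CPM in γδint and 40.7 in γδ- in non-cycling barcodes, but 25.7 and 31.2 in cycling barcodes. Cycling barcodes were 23.3% of γδint and 8.87% of γδ-. The WT pair was mostly cycling, so the WT and Lat-KO values are not like for like. Within cycling barcodes Ccng2 was the gene closest to 2-fold between Lat-KO DN3 γδ- and WT DN3a, at 0.98 (0.59 to 1.38). By the phase split described below, WT DN3a had 16 G2M-like and 395 S-like barcodes, and Lat-KO DN3 γδ- had 115 and 451. Ccng2 had 61.2 CPM in WT DN3a and 56.3 in Lat-KO DN3 γδ- in G2M-like barcodes, and 11.4 and 17.6 in S-like barcodes. The part of phase in the 0.98 was not tested.

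Compared with WT DN3b γδ+, Lat-KO DN3 γδint had 6 of 9 genes at least 2-fold higher, in a comparison where 27.6% of 8404 genes were and the median gene was 0.56 higher. These were Pik3ip1 (2.95), Txnip (2.18), Btg1 (2.07), Btg2 (1.69), Ddit4 (1.35) and Cdkn1b (1.22). Ccng2 was at 0.88, and Foxo1 (-0.20) and Sesn3 (-0.31) were lower. TMM scaling took 0.64 from each value, leaving 4 of 9 with 10.2% of all genes higher, and 14.9% lower in place of 7.0%. The library with the low ribosomal share is on 1 side of this comparison. Among non-cycling barcodes 7 of 9 were higher, with 30.3% of all genes, Ccng2 (1.42) being the addition. TMM scaling left 4 of 9 there, with 14.1% of all genes, and Ccng2 at 0.96. Among cycling barcodes 5 of 9 were higher, with 19.4%, and Sesn3 was lower, at -0.92 (-1.07 to -0.78). There TMM scaling left 2 of 9 higher, with 6.05% of all genes, and put 2 of 9, Foxo1 and Sesn3, at least 2-fold lower, with 12.2%. Immediate-early genes summed to 2025 CPM in Lat-KO DN3 γδint and 944 in DN3b γδ+, 4 of 10 being at least 2-fold higher, as were 4 of 5 glucocorticoid-responsive genes. In non-cycling barcodes globin genes summed to 15.3 and 679 CPM and the 8 other cycle genes to 363 and 865 CPM. Of these barcodes 2.85 and 25.0% had under 10 T marker UMIs. The part of these in the values of the 9 genes was not tested.

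Cycling barcodes were set against non-cycling barcodes inside each library, where both come from 1 preparation. Members at least 2-fold lower in cycling barcodes numbered 4 for DN4 γδ+ (with 4.44% of all genes), 4 for DN4 γδ- (4.18%), 2 for DN3b γδ+ (1.23%), 3 of the 8 measured for DN3b γδ- (1.77%) and 1 for WT DN3a (1.32%). In Lat-KO DN3 γδ- there was 1 (1.69%) and in γδint there were 4 (4.86%). No member was 2-fold higher in any library. Of all genes, 4.56% were in WT DN3a and 2.81% in DN3b γδ-, so that count says nothing particular of these genes. Immediate-early genes were also lower in cycling barcodes of 7 of 7 libraries, at a summed 406 to 1470 CPM against 611 to 2607 in non-cycling barcodes. Globin genes summed to 28.7 CPM in cycling and 3401 in non-cycling barcodes of DN4 γδ-, and 2.02 and 43.4% of these had under 10 T marker UMIs. The part of these in the counts was not tested. The log2 difference of Pik3ip1 ran from -0.81 to -1.504 over the 7 libraries and that of Btg1 from -0.89 to -1.74. Txnip ran from -0.38 to -1.19, Ddit4 from -0.35 to -1.34, Btg2 from -0.46 to -1.09, Foxo1 from -0.10 to -0.88 and Cdkn1b from -0.38 to -0.79. Sesn3 was lower in cycling barcodes of 6 libraries, down to -0.99, and higher by 0.19 (0.03 to 0.36) in DN3b γδ+.

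How many of these calls stood depended on how the states were drawn. Another rule used 8 other cycle genes in place of Mki67 and Top2a. It asked for at least 5 UMIs in cycling and under 2 in non-cycling barcodes, so genes and cutoffs both changed. Under it 7 or 8 of the 9 genes were at least 2-fold lower in cycling barcodes of both DN3b libraries, DN4 γδ-, WT DN3a and Lat-KO DN3 γδ-. Under that choice the share of all genes was larger too, at 12% for DN3b γδ-, 9.12% for DN3b γδ+, 15% for DN4 γδ-, 8.25% for WT DN3a and 4.8% for Lat-KO DN3 γδ-. At 4000 UMIs a barcode the count was 0 in both DN3b libraries, DN4 γδ- and WT DN3a, where 0.252% (DN3b γδ-), 0.362% (DN3b γδ+), 0.979% and 3.92% of all genes were. Drawing to that depth raised the share of DN3b γδ- barcodes with 0 UMIs of Mki67 and Top2a from 5.36 to 15.1%.

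Ccng2 was the exception. Cycling barcodes had more Ccng2 than non-cycling barcodes in DN3b γδ- (0.95, interval 0.56 to 1.38), DN3b γδ+ (0.72, 0.37 to 1.10) and Lat-KO DN3 γδint (0.31, 0.11 to 0.51), less in WT DN3a (-0.81, -1.17 to -0.46), and differed by less than the interval in DN4 γδ- (0.20), DN4 γδ+ (-0.05) and Lat-KO DN3 γδ- (0.13). With the 8 other cycle genes and their cutoffs the DN3b γδ- and DN3b γδ+ values turned to -0.77 and -1.002, so the direction depends on how the states were drawn. As a mean of barcode CPM the DN3b γδ- value was 0.019. Cycling barcodes were then split by whether 8 S phase genes or 8 G2 and M phase genes had more UMIs. Ccng2 was higher in the G2M-like barcodes of 7 of 7 libraries. In CPM it had 62.9 against 28.4 in DN4 γδ+, 28.6 against 10.6 in DN3b γδ+, 19.2 against 10.8 in DN4 γδ-, 20.3 against 10.5 in DN3b γδ-, 56.3 against 17.6 in Lat-KO DN3 γδ- and 48.5 against 21.8 in γδint. These are log2 differences of 1.15, 1.44, 0.83, 0.96, 1.68 and 1.15, and between 0.988 and 2.86% of all genes were at least 2-fold higher in the same splits. WT DN3a, with 16 G2M-like barcodes and 12 UMIs of Ccng2 in them, had 2.43 (1.40 to 3.34), in a split where 12.1% of all genes were at least 2-fold higher. No other member was 2-fold higher in any of the 7 libraries, and the largest value was 0.81, of Cdkn1b in DN3b γδ+.

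**Figure D3:**
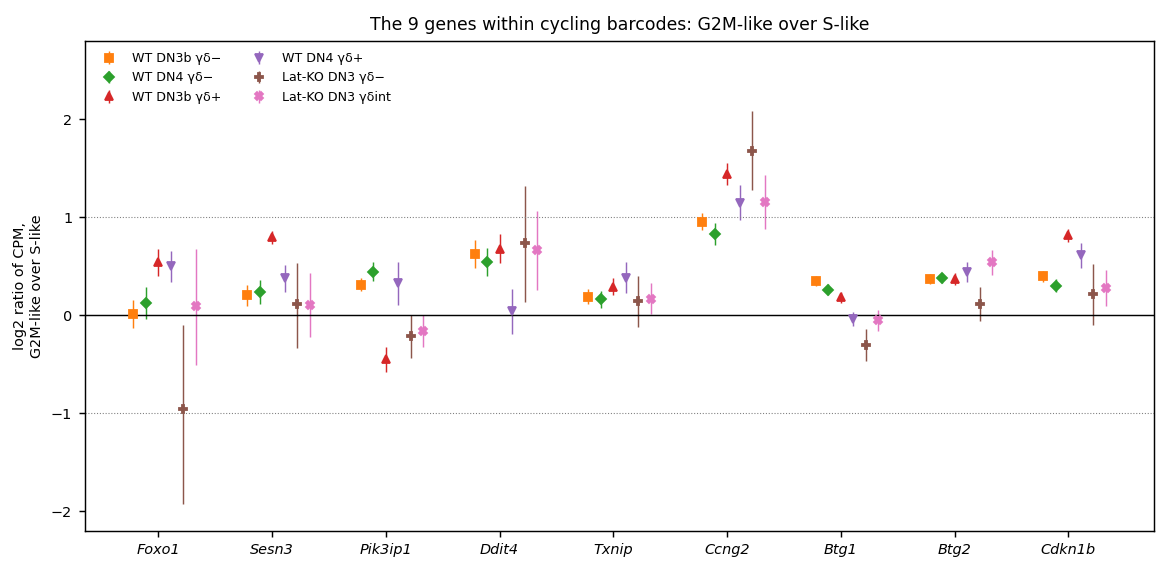
Log2 ratio of CPM between G2M-like and S-like cycling barcodes for the 9 genes, with exact 95% intervals, in 6 libraries (WT DN3a is left out because it had 16 G2M-like barcodes). Dotted lines mark 2-fold, and Ccng2 is above 0 in all 6, from 0.83 to 1.68.

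Counted per barcode, more of the 9 genes were seen in some populations than in others. Such a count rises with the level of each gene, and whether the genes occur together within cells was not tested. At 4000 UMIs a WT DN3a barcode had a UMI of 2.89 of the 9 on average. The means were 3.13 for DN4 γδ+, 1.30 for DN3b γδ+, 0.987 for DN4 γδ-, 0.895 for DN3b γδ-, and 3.15 and 3.07 for Lat-KO DN3 γδ- and γδint. At least 5 of the 9 were seen in 11.8% of WT DN3a, 18.2% of DN4 γδ+ and 15.7 and 16.02% of the Lat-KO barcodes, but in 0.26% of DN3b γδ-, 0.576% of DN4 γδ- and 1.04% of DN3b γδ+. No UMI of any of the 9 was present in 41.0% of DN3b γδ- and 2.70% of DN4 γδ+ barcodes. In non-cycling barcodes the share with at least 5 was 21.4% for DN4 γδ+, 12.5% for WT DN3a, 4.20% for DN4 γδ-, 3.42% for DN3b γδ+ and 1.41% for DN3b γδ-. Among non-cycling barcodes the order of the populations was thus the same, except that DN4 γδ- passed DN3b γδ+, with overlapping intervals. Before drawing, the 8 other cycle genes summed there to 944 CPM for DN4 γδ-, 865 for DN3b γδ+ and 764 for DN3b γδ-. Elsewhere this sum was 136 to 363 CPM, so cycling was not removed from this order.

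**Figure D4:**
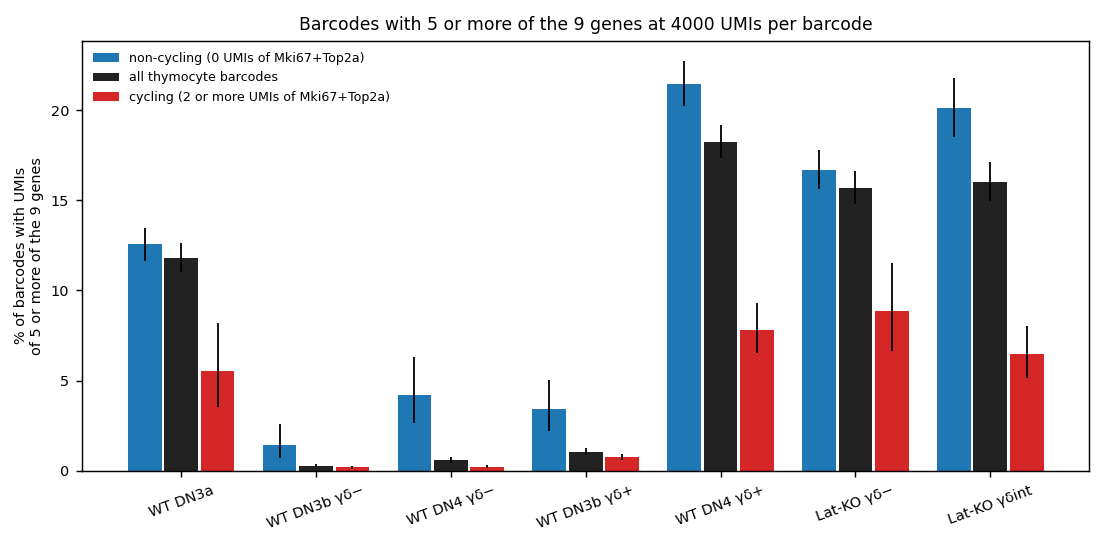
Share of barcodes (%) with UMIs of 5 or more of the 9 genes, each barcode drawn to 4000 UMIs and shallower ones left out, in the 7 libraries for non-cycling (blue), all (black) and cycling (red) barcodes, with exact 95% intervals. Red bars are the lowest in each library, and DN4 γδ+ has the highest black bar (18.2%).

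DN4 γδ+ cells are diversifying into functional subsets, so its non-cycling barcodes, drawn to 4000 UMIs, were split by subset genes. Foxo1 was higher in the 957 barcodes with S1pr1, the receptor that guides cells out of the thymus and a gene known as a FoxO1 target through Klf2, than in the 3286 without (147 against 66.5 CPM, log2 difference 1.14, 0.99 to 1.30), in a split where 1.53% of all genes were at least 2-fold higher. Ddit4 (0.56), Btg1 (0.54), Txnip (0.40) and Cdkn1b (0.19) were higher there too by less.

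Barcodes with at least 2 UMIs of Il2rb, Klrd1 and Eomes, genes of the interferon-γ programme, numbered 410 against 3360. They had less Pik3ip1 (44.5 against 93.01 CPM, -1.06, -1.42 to -0.72), Ccng2 (-0.78), Btg2 (-0.42) and Txnip (-0.31), in a split where 4.68% of all genes were at least 2-fold lower. They had more Ddit4 (0.75), Foxo1 (0.53), Sesn3 (0.23) and Btg1 (0.18). The 68 barcodes with Zbtb16, which encodes PLZF, held 14 UMIs of Txnip and 10 of Pik3ip1, for log2 differences of -1.39 (-2.27 to -0.65) and -1.24 (-2.30 to -0.35), in a split where 10.8% of all genes were at least 2-fold lower and 8.33% higher. These 3 splits overlap in their barcodes and come from 1 library.

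**Figure D5:**
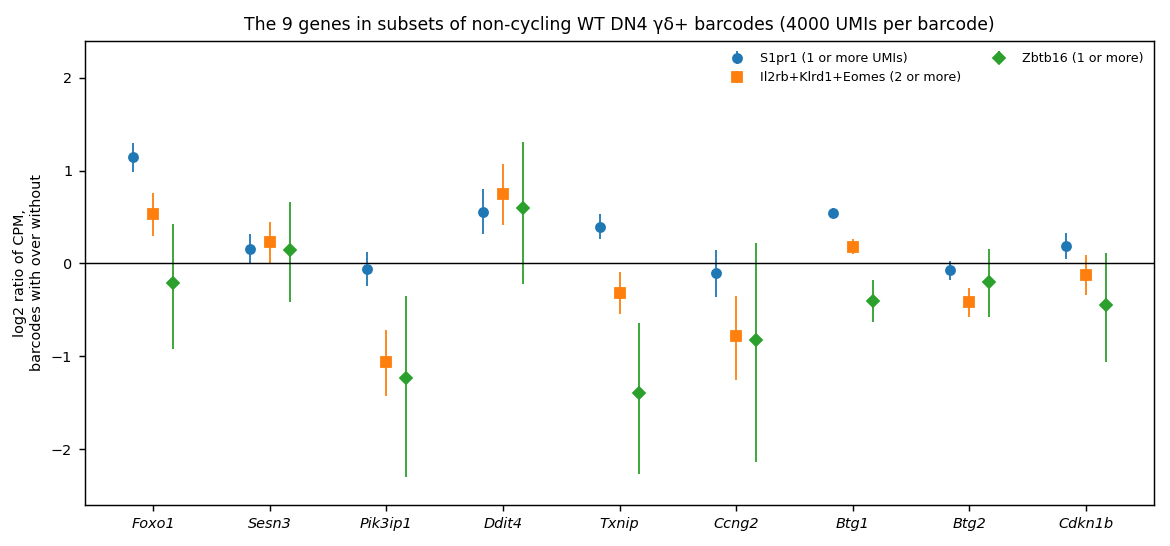
Log2 ratio of CPM of the 9 genes within non-cycling DN4 γδ+ barcodes drawn to 4000 UMIs, for barcodes with against without the subset genes named in each series, with exact 95% intervals. Foxo1 is higher with S1pr1 (1.14), and Pik3ip1 is lower with Il2rb, Klrd1 and Eomes (-1.06).

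The wider pathway was read from lists of other genes. Of the other FoxO factors 1 of 3, Foxo3, reached 10 CPM: it had 31.6 CPM for DN4 γδ+, 12.7 for DN3b γδ+, 13.5 for DN3b γδ- and 36.3 for WT DN3a. Of 22 genes known as FoxO targets, 15 were measured above the minimum between WT DN3a and DN3b γδ-, and 8 were at least 2-fold lower (16.3% of all genes were) and 0 higher. TMM scaling left 5 lower, with 8.56% of all genes. They were led by Fbxo32 (an atrophy-linked ubiquitin ligase, -2.24), Gadd45a and Gadd45b (stress response, -2.05 and -1.97) and Insr (the insulin receptor, -1.72). From WT DN3a to DN3b γδ+ 5 of 17 were lower (15.3% of all genes) and 2 higher, a share near the 10.8% of all genes that were. The latter were Ccr7, a chemokine receptor (20.9 against 0.447 CPM, 5.55), and Klf2, a transcription factor of T cell trafficking (58.2 against 6.42 CPM, 3.18). Klf2, like Sesn3, is in the study's list of genes induced by the γδ TCR that was chosen on these libraries. Its level in DN3b γδ+ is therefore not independent evidence of that. From DN3b γδ+ to DN4 γδ+ 13 of 18 were higher (11.8% of all genes) and 0 lower. TMM scaling left 8 higher (7.06% of all genes). Among the 13 were S1pr1 (62.3 against 1.12 CPM, 5.80), Fbxo32 (2.89), Klf2 (2.50) and Bcl2l11 (the pro-apoptotic BIM, 1.96). Between Lat-KO DN3 γδ- and WT DN3a 0 of 15 reached 2-fold, where 2.8% of all genes were higher and 0.62% lower, so the count says nothing particular of these genes.

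In Lat-KO DN3 γδint against DN3b γδ+, 2 of 16 FoxO targets were lower, Ccr7 (0.714 against 20.9 CPM, -4.87) and Klf2 (7.19 against 58.2 CPM, -3.02), where 7.0% of all genes were and 14.9% with TMM scaling, while 6 of 16 were higher, where 27.6% of all genes were, led by Pink1 (mitochondrial quality control, 2.58) and Insr (1.89). TMM scaling left 3 of 16, with 10.2% of all genes. Of 20 genes of PI3K, AKT and mTOR, 3 of 16 measured were at least 2-fold lower in DN3b γδ- than in WT DN3a, a share near the 16.3% of all genes, among them Pik3cd (-1.94) and Pik3r1 (-1.45), which encode PI3K subunits. TMM scaling left 2 lower and 1 higher, with 8.56 and 20.6% of all genes. From DN3b γδ+ to DN4 γδ+ 4 of 16 were higher (11.8% of all genes) and 0 with TMM scaling (7.06%). Of 22 other quiescence and antiproliferative genes, 11 of 16 measured were lower in DN3b γδ- than in WT DN3a (16.3% of all genes), led by Cdkn1a (p21, -3.35) and Zfp36l1 (an mRNA decay factor, -2.53), and 1 was higher. From DN3b γδ+ to DN4 γδ+ 9 of 16 were higher (11.8% of all genes), led by Slfn2 (needed for T cell quiescence, 3.76), Mxd4 (a MYC antagonist, 3.04), Vsir (2.67) and Tsc22d3 (1.79). Glucocorticoid-responsive genes, which include Tsc22d3, moved with them, 5 of 5 measured being lower in DN3b γδ- than in WT DN3a (4 with TMM scaling) and 3 of 5 higher in DN4 γδ+ than in DN3b γδ+ (3 with TMM scaling). Their part in the values of the 9 genes was not tested.

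Across 14 profiles (7 libraries by 2 states), each gene's log2(CPM + 1) was compared with the mean profile of the 9. Pearson's r with that mean was 0.987 for Btg1, 0.958 for Cdkn1b, 0.934 for Btg2, 0.929 for Ddit4 and 0.906 for Txnip, and 0.816 for Sesn3, 0.760 for Ccng2, 0.693 for Pik3ip1 and 0.677 for Foxo1. The 2 states of a library share its preparation and depth, and each member is part of the mean. Foxo1 went with Sesn3 (0.857) but not with Pik3ip1 (0.002), while Txnip went with Btg2 (0.959) and Pik3ip1 (0.902). Foxo1 had 84.0 and 51.2 CPM in the 2 DN4 γδ+ profiles and at most 15.5 CPM in any other, so 1 library weighs heavily in its r values. Among 7271 other genes the closest to the mean were Lgals8 and Crebbp (0.984 each), Cyth1 (0.983), Zfand6, Trim12a, Zbp1 and Trim12c, in that order, then Nckap1l, Tmem106b (0.978 each) and Ypel5 (0.974). The 2 genes closest to Foxo1 were Itgb3 (0.982) and Ms4a4b (0.966), to Sesn3 Nr4a2 (0.981) and Itgal (0.978), and to Pik3ip1 Man2a2 (0.985) and Wdr13 (0.983). Ccng2 had the loosest match of the 9, with Osbpl9 (0.905) and Creb1 (0.899).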

How the data were processed

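Single-cell RNA was captured with the 10x Genomics 3' v3 kit from 7 sorted populations, 1 library each. The files the authors deposited hold raw UMI counts per gene and barcode. Per the labels and the study's methods, reads were aligned with Cell Ranger (5.0.1 in the notes, 4.0.0 in the file header) to mm10 with an edited Trdc gene, before work in R 3.6.3 and Seurat 3.1.5.

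Barcodes were kept that had 200 genes or more and a mitochondrial share of up to 15%, then those with at most 1 B cell UMI, which left out 4.96 to 19.9% of filtered barcodes. Most barcodes that this limit left out were not B-like, from 419 of 615 in WT DN4 γδ+ to 1392 of 1603 in Lat-KO DN3 γδ-. No doublet caller was run; the sort excluded doublets by scatter, and 0 to 75 B-like barcodes a library stayed among the thymocyte barcodes. In all, 925 barcode sequences occurred in more than 1 library, touching 1.85 to 2.45% of thymocyte barcodes. Counts were summed to CPM with exact Poisson intervals; ratios carry exact conditional binomial intervals and shares Clopper-Pearson intervals, all at 95%. Genes with at least 10 CPM in 1 of a pair were compared by a fold of 2, and no p-values are given. TMM factors came from edgeR 4.0.16 in R 4.3.3; other steps used Python 3.11.15, numpy 2.4.6, scipy 1.17.1 and pandas 2.3.3. The scripts were tested on simulated data. All 9 genes are described in every library; of each other list at most 4 genes with the largest ratio are named per comparison, and by likeness 10 genes for the mean and 2 a gene. The genes, lists and splits were chosen with earlier results of these data known. One further split of DN4 γδ+ barcodes and 1 gene of a list are not reported here. Alternatives covered scaling, barcode filters, depth and the choice of cycle genes and their cutoffs.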

Additional observations from a re-analysis of the deposited data

How the results depend on the processing

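Of 118 log2 differences of at least 2-fold, 86 stayed past 2-fold under every alternative that applied to them, 32 were lost under 1 or more, and 0 turned sign. The other cycle genes and the limit of at least 5 UMIs applied only to cycling over non-cycling barcodes within a library. Differences between libraries within 1 state were not tried under them, so their standing there is not known. Between libraries, leaving mitochondrial and ribosomal protein genes out of the total cut the members higher in DN3b γδ+ than in DN3b γδ- from 2 to 1 (Btg1 then fell below 2-fold at 0.97), and no other count over all thymocyte barcodes of 2 libraries left 1.5 times its value. Within 1 state more did. Btg1 went as low as 0.65 in non-cycling and 0.92 in cycling barcodes of DN3b γδ+ over γδ-, which cut those counts from 2 to 1, and TMM took the members higher in Lat-KO DN3 γδint than in DN3b γδ+ from 7 to 4 in non-cycling and from 5 to 2 in cycling barcodes. Between cycling barcodes of DN3b γδ+ and WT DN3a the 3 lower became 5 without the deepest 5% of barcodes. Counts of members lower in cycling barcodes were less stable. A recount printed without its share of all genes shows only how the count moved. In WT DN3a the 1 became 3 with 0 B cell UMIs allowed, 6 with at least 5 UMIs of Mki67 and Top2a, 8 with 8 other cycle genes, and 0 when drawn to 4000 UMIs, as a mean of barcode CPM, without the deepest 5% of barcodes, or with the B cell limit replaced by leaving out B-like barcodes (chosen after seeing the data). In DN3b γδ- the 3 became 0 when drawn and 7 with other cycle genes, and Ccng2 made 1 member higher (0 before) with TMM, at least 10 T marker UMIs, 0 B cell UMIs, drawing, or at least 5 UMIs. In DN4 γδ- the 4 became 2 with TMM, 0 when drawn and 8 with other cycle genes. In DN3b γδ+ the 2 became 1, 0 and 7 under the same settings, and in DN4 γδ+ the 4 became 2 as a mean of barcode CPM and 2 without the deepest 5%. In Lat-KO DN3 γδ- the 1 became 0 with TMM, the mean, without the deepest 5% or B-like barcodes, 2 without mitochondrial and ribosomal genes, 6 with at least 5 UMIs and 7 with other cycle genes, and in γδint the 4 became 7 with at least 5 UMIs. With at least 5 UMIs the share of all genes lower was larger as well, 10.1% in WT DN3a, 8.02% in Lat-KO DN3 γδ- and 7.6% in γδint, as it was with other cycle genes. Drawing raised the share of DN3b γδ- barcodes with 0 UMIs of Mki67 and Top2a from 5.36 to 15.1%, and it also left out barcodes under 4000 UMIs. The cause of the moves was not tested. No paired analysis was possible because each population has 1 library and the labels number no replicates. The smallest counts behind a level in either state were 51 UMIs of Ccng2 in non-cycling DN3b γδ- barcodes and 55 of Ddit4 and 57 of Foxo1 in cycling WT DN3a barcodes.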

Other observations

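The spiked splenic B cells give the 9 genes in another resting lymphocyte. In 160 to 338 B-like barcodes a library, Btg1 lay at 657 to 1632 CPM, Txnip at 108 to 264, Btg2 at 104 to 256, Cdkn1b at 68.5 to 131, Sesn3 at 54.2 to 91.2, Foxo1 at 54.8 to 86.5, Pik3ip1 at 30 to 89.3, Ddit4 at 16.4 to 48.8 and Ccng2 at 21.3 to 41.9 CPM. For Foxo1 this range takes in the 70.9 CPM of WT DN4 γδ+ and lies above every other thymocyte library, whose highest value is 15.01 CPM. For Pik3ip1 it lies below the 170.0 to 223 CPM of WT DN3a and the Lat-KO libraries. T cell markers reached 12.5 to 35.4% of the thymocyte level in the same barcodes, so part of each value is thymocyte RNA, and that part was not measured.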
